A study of Dicentrarchus labrax with 30 samples.

Results

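Myelin basic protein (MBP) and the identifiers named for myelin oligodendrocyte glycoprotein (MOG) were followed in European sea bass (Dicentrarchus labrax), across brain, pituitary and head kidney. The members were all identifiers of the deposited count table whose symbol is MBP or MOG, each kept apart, which gave 25 of 26719 identifiers. MBP had 1 identifier, DLAgn_00064210, and MOG had 24. MOG was shared by more identifiers than any other symbol but 1, whereas the 14950 distinct symbols of the table included 4388 that were shared by at least 2 identifiers. Both symbols were chosen because their levels were already known to differ between tissues in these libraries, so the tissue levels of the members are given as a description, with no test.

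The fish were the extremes of a risk-taking assay in which the time to leave a shelter was measured. Bold fish came out early, and shy fish came out very late or stayed inside. All fish were 478 days past fertilization, and each tissue gave 5 bold libraries (3 males and 2 females) and 5 shy libraries (2 males and 3 females), 30 libraries from 10 fish. The fish carried no treatment or genotype in the labels, which do not say which libraries of different tissues came from the same fish, so numbers such as brain shy 4 only name a library within its tissue.

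In the central nervous system of vertebrates, myelin is the stacked membrane that oligodendrocytes wrap round axons. MBP is a cytosolic protein that draws the inner faces of that membrane together, and in mammals its locus also makes longer transcripts, called golli, that are found in immune cells and neurons. MOG in mammals is a minor surface protein of the outermost myelin layer with a single immunoglobulin domain. It belongs to the butyrophilin family, whose other members, relatives of the B7 ligands, act mostly at the surface of immune and epithelial cells, and a fish identifier can carry the name MOG through similarity to that shared domain. The head kidney of fish is a blood-forming and immune organ that also holds the interrenal cells, and the pituitary is an endocrine gland whose posterior part receives axons from the brain. No sequence of the members was used, so how closely the 24 MOG identifiers resemble each other or mammalian MOG is not known here, and reads that fit several near-identical copies may have been split among them or dropped in the authors' counting.

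Levels are CPM, reads of a gene relative to the size of its library, with sizes scaled by TMM factors over all 30 libraries, and they compare a gene with itself across libraries, not 1 gene with another, because gene lengths were not used. Total counts ranged from 7916478 to 20067656 in brain, from 3808645 to 12550808 in pituitary and from 4667992 to 26837997 in head kidney. Markers of each labelled tissue were highest there. Summed markers of neurons were 5558 to 7158 CPM in brain libraries, 792 to 1262 CPM in pituitary and 2.65 to 6.3 CPM in head kidney, where 5 of 21 had no count. Summed markers of macrophages and neutrophils were 38.2 to 68.6 CPM in brain, 22.9 to 79.2 CPM in pituitary and 2568 to 5565 CPM in head kidney. Summed markers of pituitary endocrine cells were 6.58 to 38.2 CPM in brain, 1850 to 3744 CPM in pituitary and 1.72 to 6.42 CPM in head kidney. Brain shy 4 stood apart from the other brain libraries: of 18640 genes tested in brain, 44.6% were below and 39.2% above all of the other 9 libraries there. Ribosomal protein genes took 0.0159% of its counts, against 2.8% in brain shy 1 and 1.64% to 2.07% in the other 8 brain libraries. Brain shy 1 was counted as standing apart too, though its share was far nearer to the others, and no limit for this is given. It was also the brain library lowest in MBP, at 472 CPM. Pituitary shy 1 and 2 also stood apart, with 3% and 1.86% against 3.96% to 5.48% in the rest of that tissue. Values without these 4 libraries, which are all from shy fish, are given beside the results for the members and for some of the other named genes.

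MBP was a brain transcript that was also found in each library of the other tissues. In brain it was 646, 692, 1254, 1284 and 1222 CPM in bold fish, against 472, 918, 967, 1164 and 1131 CPM in shy fish. In pituitary it was 61.7, 57.6, 51.1, 55.6 and 64.1 CPM in bold fish, against 53.2, 98.6, 37.9, 55.8 and 74.7 CPM in shy fish. In head kidney it was 42.7, 58.0, 66.7, 50.0 and 60.2 CPM in bold fish, against 48.9, 53.0, 40.9, 68.2 and 51.3 CPM in shy fish. Each brain library was thus above each library of the other tissues, whereas pituitary and head kidney overlapped, and within each tissue the bold and shy ranges overlapped. That each brain library was above each head kidney library held for 26.5% of the 20598 genes tested across tissues.

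Over tissues, MBP averaged 975 ± 287 CPM in brain, 61.0 ± 16.2 CPM in pituitary and 54.0 ± 9.21 CPM in head kidney (SD, n = 10 each). The brain mean was 18.1 times the head kidney mean and 16 times the pituitary mean. Without brain shy 1 and 4, MBP averaged 1014 ± 250 CPM over the other 8 brain libraries. The means of pituitary and head kidney lay closer together than the SD of either. The order of the 3 means was the same with plain library totals, at 1214, 70.2 and 38.5 CPM, but the gaps between them were wider: the brain mean was 31.5 times and the pituitary mean 1.83 times the head kidney mean. The counts behind the low tissues were not small, since the 10 head kidney libraries held 6294 MBP reads and the 10 pituitary libraries 5788. In bulk tissue a smaller share of the cells that make MBP and less RNA per cell cannot be told apart. MBPA and PLP1B, 2 myelin genes described below, had 1 and 4 reads in all of head kidney, and 168 and 147 in all of pituitary. Which cells gave the MBP reads outside brain was not tested. Between its highest and lowest library MBP spanned 2.72-fold in brain, 2.6-fold in pituitary and 1.66-fold in head kidney.

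**Figure D1:**
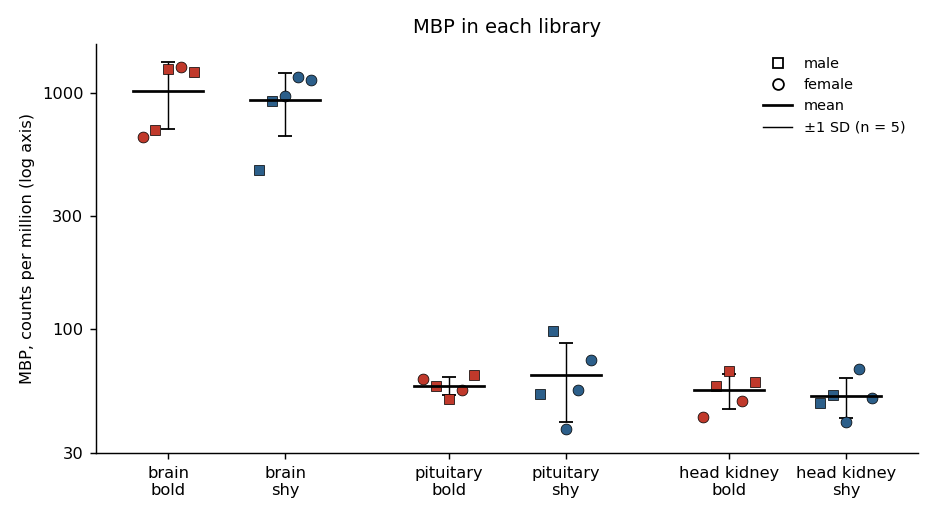
MBP in CPM (TMM-scaled, log axis) in each of 30 libraries, grouped by tissue and behavior; squares are males and circles females, the thick line is the group mean and the bar is 1 SD (n = 5). Brain libraries lie between 472 and 1284 CPM, and all pituitary and head kidney libraries lie between 37.9 and 98.6 CPM.

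Other genes of the myelin sheath, and relatives of such genes, were set beside MBP, from lists chosen with earlier results of these libraries known. A gene was called between tissues at an adjusted p under 0.05 in edgeR's quasi-likelihood test over 20598 genes with a change of at least 1 on the log2 scale; among all genes 37.6% were called higher and 26% lower in brain than in head kidney. Of 29 tested identifiers of myelin membrane and compaction proteins, 18 were higher and 6 lower in brain than in head kidney, with a median log2 fold change of 3.83 against 0.21 over all genes. Of 25 identifiers listed as regulators of the oligodendrocyte lineage, among them copies of EGR2, GPR126 and LINGO1, 22 were higher and 1 was lower (median 6.43). Markers of other brain cells were higher too, 21 of 21 for neurons (median 9.90) and 7 of 7 for astroglia (median 9.20). Of 14 enzymes of myelin lipids, 5 were higher and 2 lower (median 0.73). Without the 4 libraries that stood apart, the counts were 18 higher and 6 lower for the membrane list, 20 and 1 for the regulators and 6 and 3 for the enzymes, of which 15 were then tested.

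The 3 membrane genes with the largest change from head kidney were MBPA, PLP1B and MAL2. MBPA, which carries the zebrafish name of an MBP copy but is a separate identifier, averaged 445 ± 191 CPM in brain and had 1 read in all head kidney libraries together (adjusted p 2.38e-14 in edgeR). PLP1B, a fish form of the proteolipid protein that spans the myelin membrane, averaged 486 ± 197 CPM in brain, and 4 reads fell on it in all of head kidney (adjusted p 1.16e-17 in edgeR). MAL2, of the MAL family of membrane-sorting proteins, averaged 83.0 ± 69.3 CPM in brain and had no head kidney read. A count of 0 allows at most 3 reads over the tissue, and against that floor MAL2 was at least 3046-fold higher in brain. Floors and bounds cover counting error only. The identifiers named MAL itself, given after their values were seen, averaged 0.102 (DLAgn_00235580), 0.0353 (DLAgn_00015980) and 0.183 CPM (DLAgn_00015990) in brain. DLAgn_00015980 averaged 14.5 ± 3.19 CPM in pituitary. Brain shy 4 was far from the other libraries in MBPA, PLP1B and MAL2, at 277 CPM for MAL2 against 43.3 to 90.0 CPM in the other 9. Without brain shy 1 and 4 the brain means were 514 ± 111 CPM for MBPA, 551 ± 117 CPM for PLP1B and 57.9 ± 8.25 CPM for MAL2 (SD, n = 8), and the bound for MAL2 was 2124-fold.

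Among the lipid enzymes, UGT8, which makes galactosylceramide, averaged 129 ± 31.3 CPM in brain, 37.2 ± 8.83 CPM in pituitary and 0.0153 CPM in head kidney. The GAL3ST1 identifier DLAgn_00116490, for the enzyme that adds the sulfate of sulfatide, was 6.72 higher in brain than in head kidney on the log2 scale (SE 0.545, adjusted p 1.93e-12 in edgeR). The second GAL3ST1 identifier, DLAgn_00084660, was not in the fit across tissues. Its brain mean, 0.312 CPM (SD 0.255), was below its head kidney mean, 0.426 CPM (SD 0.59). The ENPP6 identifier DLAgn_00249310, for a choline phosphodiesterase of oligodendrocytes in mammals, was 5.78 higher in brain than in head kidney (SE 0.496, adjusted p 7.13e-12 in edgeR). This ENPP6 identifier was lower in brain than in pituitary, at 13 ± 12 and 31 ± 8.65 CPM (log2 fold change -1.25, SE 0.352, adjusted p 0.00276 in edgeR). The second ENPP6 identifier, DLAgn_00113280, was not called between brain and head kidney (log2 fold change 0.76, SE 0.497, adjusted p 0.16 in edgeR). The second identifiers of GAL3ST1 and ENPP6 are named after their values were seen. Of the lineage regulators, SOX8, a transcription factor of glial cells, was 9.98 higher in brain than in head kidney on the log2 scale (SE 0.229, adjusted p 1.66e-24 in edgeR). OLIG2, a transcription factor that specifies oligodendrocytes, averaged 11.3 ± 4.03 CPM in brain and had no read in head kidney, which makes it at least 414-fold higher in brain. LINGO1B, related to a mammalian inhibitor of myelination, averaged 13.5 ± 4.54 CPM in brain and likewise had no read there (at least 496-fold). Without brain shy 1 and 4 these bounds were 459-fold for OLIG2 and 564-fold for LINGO1B. Without the 4 libraries that stood apart, the log2 fold change of ENPP6 (DLAgn_00249310) was 5.27, that of GAL3ST1 (DLAgn_00116490) 6.54 and that of SOX8 9.95. The myelin lists were not absent from head kidney as a whole. Of 33 membrane identifiers, 4 had no read there and 18 had a read in each of its 10 libraries, as MBP did. Of 30 lineage regulators, 5 had no read and 9 a read in each. Among all 26719 identifiers, 23218 had a read in head kidney, and single libraries there had a read for 18436 to 20684. These counts are a description.

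Of the 6 membrane identifiers that were lower in brain, 2 are described here, chosen after their values were seen. An identifier named MAG (DLAgn_00196850) averaged 0.464 ± 0.342 CPM in brain, against 74.4 ± 19.1 CPM in head kidney, a log2 fold change of -7.34 (SE 0.375, adjusted p 3.62e-17 in edgeR). MAG in mammals is an inner myelin adhesion protein of the Siglec family, whose other members sit on leukocytes. PLLP, which encodes plasmolipin, a proteolipid of myelin and of epithelia, averaged 0.184 ± 0.125 CPM in brain, against 115 ± 24.9 CPM in head kidney (log2 fold change -9.18, SE 0.217, adjusted p 2.15e-24 in edgeR). In pituitary PLLP averaged 135 ± 32.3 CPM, and this MAG identifier 0.647 ± 0.488 CPM. Without the 4 libraries that stood apart the changes between brain and head kidney were -7.21 for MAG and -9.11 for PLLP.

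In pituitary the same lists were set against head kidney, where 34.8% of all genes were called higher and 22.4% lower. There 18 of 29 membrane identifiers were higher and 5 lower, 14 of 25 lineage regulators were higher and 4 lower, and 5 of 14 lipid enzymes were higher and 2 lower. Between brain and pituitary, 23.2% of all genes were called higher and 18.7% lower in brain, and the counts were 13 higher and 7 lower for the membrane list, 18 and 3 for the regulators and 4 and 5 for the enzymes. Without the 4 libraries these counts were the same but for the regulators between brain and pituitary, where 4 were lower. CNP, a phosphodiesterase of uncompacted myelin in mammals that was named after its values were seen, was lower in brain than in pituitary (74.0 ± 10.0 and 217 ± 18.6 CPM; log2 fold change -1.55, SE 0.107, adjusted p 1.78e-13 in edgeR). In head kidney it averaged 114 ± 22.7 CPM. These fits treat the 30 libraries as independent although 10 fish gave 3 each.

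Within brain, MBP did not follow its companion genes in every library. MBP was lowest in shy 1, bold 1 and bold 2, and MBPA was also below its median in these 3 libraries. In brain shy 4 they parted. There MBP was 1164 CPM, inside the 472 to 1284 CPM of the other 9 libraries. MBPA was 7.51 CPM in brain shy 4, against 313 to 661 CPM in the other brain libraries. PLP1B was 21.7 CPM in that library, against 395 to 715 CPM in the others. PLP1A, the other proteolipid protein identifier, was 0.231 CPM there, against 6.83 to 12.2 CPM in the others. PLP1A, MYRF and SOX10 are named after their values were seen.

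Some other genes of oligodendrocytes were highest in brain shy 4. MYRF, the transcription factor that switches on myelin genes, was 336 CPM there, against 60.2 to 84.5 CPM in the other 9. A SOX10 identifier (DLAgn_00185870), for a factor that acts with MYRF, was 133 CPM, against 27.9 to 40.8 CPM. The second SOX10 identifier (DLAgn_00180800) went the other way, at 0.231 CPM in shy 4, against 4.69 to 11.6 CPM. OLIG2 was also low in that library, at 0.231 CPM, against 10.4 to 14.5 CPM. CNP was lowest there too, at 50.6 CPM, against 70.0 to 86.8 CPM. Of 62 tested identifiers of the membrane, lipid and lineage lists, 24 were below and 29 above all other brain libraries in shy 4, and 9 were within their range, shares of 38.7% below and 46.8% above beside the 44.6% and 39.2% of all genes. What sets it apart was not tested.

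**Figure D2:**
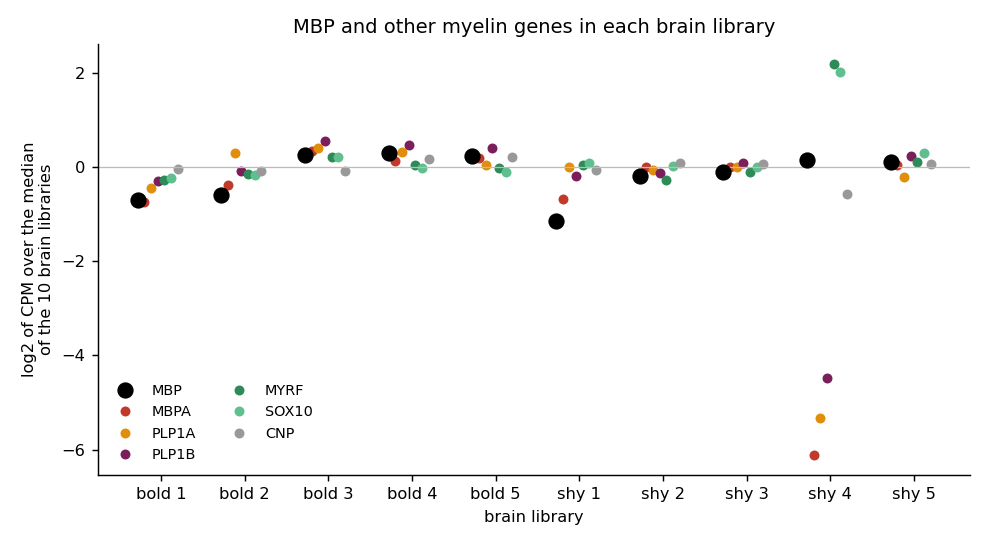
For MBP and 6 other myelin or oligodendrocyte genes, log2 of the CPM in each brain library over the median of the 10 brain libraries; points are libraries, bold left of shy, and SOX10 is DLAgn_00185870. In brain shy 4 MBP sits at 0.15, and MBPA at -6.12, while MYRF sits at 2.19.

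The MOG identifiers showed the opposite order of tissues. Of 24, 23 had their highest mean in head kidney (19 with plain library totals), 1 in pituitary and 0 in brain. A mean of at least 1 CPM was reached by 0 of them in brain, 5 in pituitary and 13 in head kidney, and 6 reached 5 CPM in head kidney. The head kidney mean was at least 5 times the brain mean for 18. For 12 identifiers each head kidney library was above each brain library, and for 5 each was above each pituitary library. Over the 14 that were in the fit across tissues these were 9 and 4, beside 22.9% and 21% of all 20598 genes in it. The scaling bears on these counts. With plain library totals, 5 identifiers had their highest mean in pituitary and 0 in brain, and 14 had a head kidney mean at least 5 times the brain mean. Then 6 of 24 were above each brain library in each head kidney library and 3 above each pituitary library, and over the 14 in the fit these were 5 and 2, beside 14.3% and 11.5% of all genes. Neither scaling put an identifier's highest mean in brain. The members were chosen with their tissue levels known. Within single tissues, 14 of the 24 passed a filter on low counts in head kidney, 3 in pituitary and 2 in brain. The shares set beside all genes thus follow partly from that choice and filter, and they test nothing.

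The CPM of all 24 summed to 2.59 to 8.35 in brain libraries (median 5.34), 7.52 to 19.8 in pituitary (13.1) and 46.3 to 97.8 in head kidney (67.7). The ranges of brain and pituitary met, and that of head kidney lay above both, also with plain totals, where head kidney libraries summed to 33.9 to 73.4, pituitary to 8.62 to 22.2 and brain to 2.66 to 11.0. Summed markers of B and T lymphocytes, which moved with tissue in the same order of brain and head kidney, were 29.6 to 65.0 CPM in brain, 19.9 to 85.3 CPM in pituitary and 426 to 1171 CPM in head kidney. With 4 of these 19 markers at 0 in brain, 2 in pituitary and 2 in head kidney, their part in the MOG levels was not tested. Reads were few in brain, where the 24 identifiers together had 27 to 205 counts a library, so that a single identifier rested on a handful of reads.

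**Figure D3:**
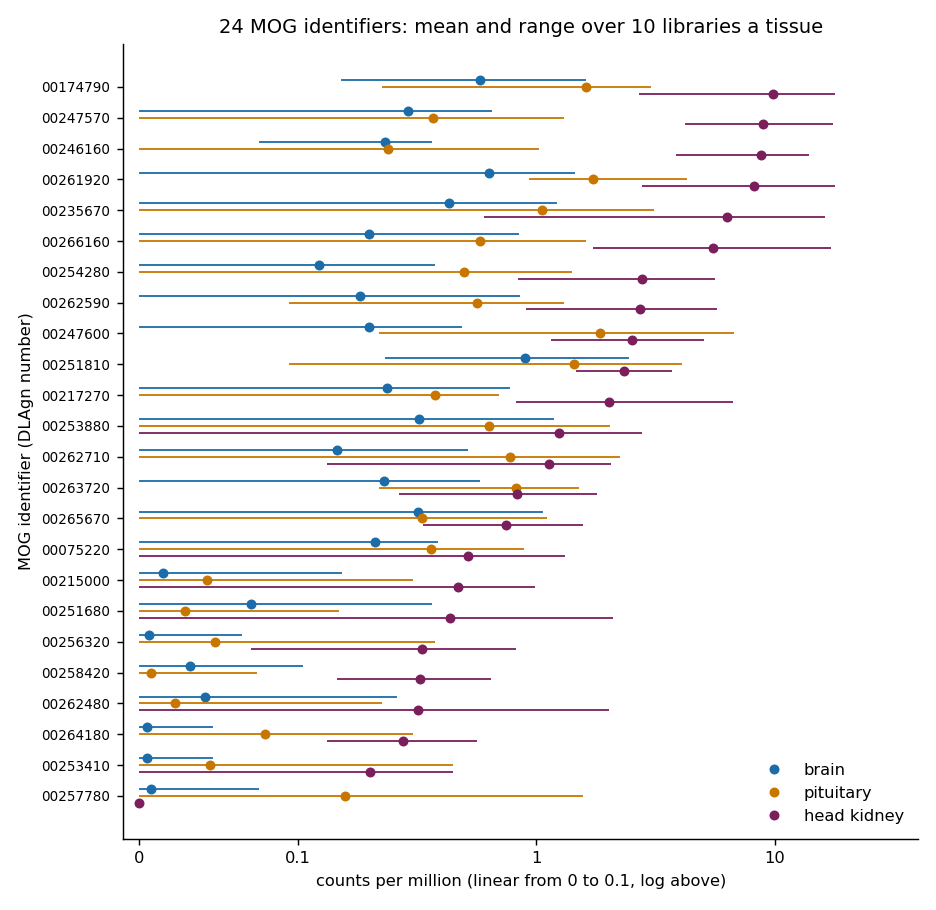
Mean (point) and range (line) of each of 24 MOG identifiers over the 10 libraries of brain, pituitary and head kidney, in CPM (linear up to 0.1, log above), ordered by the head kidney mean. With this TMM scaling the head kidney mean is the highest for 23 identifiers (19 with plain totals), and no brain mean reaches 1 CPM.

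The MOG identifiers best covered by reads in head kidney differed in how widely they varied over its libraries. DLAgn_00174790 was 5.19, 11.1, 9.20, 7.74 and 8.94 CPM in head kidney of bold fish, against 2.70, 11.7, 9.80, 13.9 and 17.8 CPM in shy fish. In brain it was 0.151 to 1.62 CPM and in pituitary 0.224 to 3.03 CPM. Its lowest head kidney library, shy 1, was the only one of that tissue below its highest pituitary library. DLAgn_00247570 was 8.2, 17.5, 5.77, 9.30 and 9.57 CPM in head kidney of bold fish, against 4.2, 6.14, 7.68, 8.73 and 11.9 CPM in shy fish. It did not pass 0.648 CPM in any brain library or 1.31 CPM in any pituitary library. DLAgn_00246160 was 7.19, 8.32, 13.9, 8.81 and 9.43 CPM in head kidney of bold fish, against 9.60, 5.55, 9.14, 11.6 and 3.85 CPM in shy fish. Its head kidney mean was 37.7 times its brain mean, with 0.232 ± 0.104 CPM in brain and 0.238 ± 0.327 CPM in pituitary, against 8.75 ± 2.86 CPM in head kidney (SD, n = 10 each).

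DLAgn_00261920 was 4.85, 3.12, 11.9, 9.13 and 17.9 CPM in head kidney of bold fish, against 3.60, 6.14, 15.1, 7.07 and 2.78 CPM in shy fish. DLAgn_00235670 was 2.68, 1.78, 12.4, 5.10 and 16.2 CPM in head kidney of bold fish, against 0.6, 2.78, 12.5, 7.76 and 1.25 CPM in shy fish. DLAgn_00254280 was 0.837, 1.34, 3.36, 4.2 and 5.63 CPM in head kidney of bold fish, against 1.20, 2.05, 4.5, 3.28 and 1.43 CPM in shy fish. All 3 were highest in bold 5 and were high in bold 3 and shy 3, which cuts across behavior, and each had its 4 lowest values in bold 1, bold 2, shy 1 and shy 5. Among the 91 pairs of the 14 MOG identifiers tested in head kidney, DLAgn_00254280 and DLAgn_00261920 had the most alike profiles over its 10 libraries, with a root mean square difference of 0.41 on the log2 scale against a median of 0.953 over the pairs. Their own spreads were 0.83 and 0.88, so the likeness is not that of 2 flat profiles. The pair next in order, DLAgn_00246160 and DLAgn_00251810 at 0.427, had small spreads of their own (0.489 and 0.411). These pairs share libraries and depth, and shared reads between copies were not tested.

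DLAgn_00266160 was 3.51, 17.2, 3.21, 3.79 and 4.64 CPM in head kidney of bold fish, against 10.8, 2.19, 1.72, 4.67 and 3.31 CPM in shy fish. A single bold library, bold 2, and a single shy library, shy 1, carried its high values, both from males. DLAgn_00247600 varied widely in pituitary, at 1.85 ± 2.22 CPM (SD, n = 10), where it was 3.39, 0.381, 0.219, 4.21 and 0.739 CPM in bold fish, against 6.71, 0.470, 0.383, 1.72 and 0.233 CPM in shy fish. In head kidney the same identifier stayed between 1.15 and 5.05 CPM. The pituitary libraries highest in it, shy 1 and bold 4, were the shallowest of the tissue, at 3808645 and 5323694 counts. Bold 1, next in order, was the deepest, at 12550808 counts. It held 49 reads of this identifier, against 30 in shy 1 and 25 in bold 4. DLAgn_00251810 had the most brain reads of the 24, with 168 over the 10 libraries (0.892 ± 0.693 CPM), and with DLAgn_00174790 it was 1 of 2 MOG identifiers that had a read in all 30 libraries.

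The lowest copies were near the floor of detection. DLAgn_00257780 had 8 reads in all, 7 of them in pituitary shy 1 and 1 in brain shy 1, and no read in head kidney, which allows at most 0.0273 CPM over that tissue. Its highest mean, in pituitary, thus rested on a single library. In all, 10 of the 24 passed the filter on low counts in no tissue, with head kidney means from 0 to 0.744 CPM; 2 passed in brain, 3 in pituitary and 14 in head kidney.

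Relatives of MOG from the butyrophilin and B7 families were called in both directions between tissues. Of 13 tested identifiers, 2 were higher and 6 lower in brain than in head kidney (median log2 fold change -0.86), beside 37.6% and 26% of all genes. In pituitary 3 were higher and 4 lower than in head kidney, beside 34.8% and 22.4%. Between brain and pituitary, 0 were higher and 5 lower in brain, beside 23.2% and 18.7%. The 2 higher in brain than in head kidney are named after their values were seen. They were BTNL9 (log2 fold change 2.33, SE 0.302) and the CD80 identifier DLAgn_00246420 (2.07, SE 0.413). In brain they averaged 67.7 ± 73.2 CPM and 55 ± 73.2 CPM, with ranges of 36.6 to 275 CPM and 12.8 to 261 CPM. The CPM of all 20 relatives summed to 109 to 141 in bold brain libraries and to 121 to 608 in shy ones. Of the 10 relatives tested within brain, 5 were above and 1 was below all other brain libraries in brain shy 4. The other CD80 identifier, DLAgn_00052300, also named after its values were seen, was called lower in brain (-2.13, SE 0.294). BTNL2, a butyrophilin-like protein that restrains T cells in mammals, averaged 0.870 ± 0.525 CPM in brain, against 11.1 ± 8.29 CPM in head kidney (log2 fold change -3.67, SE 0.438, adjusted p 7.55e-09 in edgeR). BTNL10, another member of that family, had a log2 fold change of -3.55 (SE 0.929, adjusted p 0.000925 in edgeR). It rested on 10 reads over the brain libraries and 81 over those of head kidney. ICOSLG, the B7 ligand of the T cell receptor ICOS, averaged 0.919 ± 0.437 CPM in brain, against 5.34 ± 1.51 CPM in head kidney (log2 fold change -2.55, SE 0.251, adjusted p 1.3e-10 in edgeR). Without the 4 libraries that stood apart, 15 relatives were tested, 3 were higher and 8 lower in brain than in head kidney, and the changes were -3.84 for BTNL2, -3.31 for BTNL10 and -2.64 for ICOSLG.

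Whether the members differed between bold and shy fish was tested within each tissue by edgeR's quasi-likelihood test with sex as a covariate, adjusted over all genes of the tissue. No member passed at an adjusted p under 0.05, and DESeq2 called none either. This was 0 of 3 members in brain, 0 of 4 in pituitary and 0 of 15 in head kidney, beside 0.00536%, 0% and 0.00635% of all genes called in these tissues (DESeq2 called 2, 689 and 122 genes in brain, pituitary and head kidney, or 0.0109%, 4.05% and 0.791% of those it tested). At an unadjusted p under 0.05 the members numbered 1 in brain, 1 in pituitary and 0 in head kidney, beside 1.36%, 18% and 11.2% of all genes. Bold and shy fish were not matched for sex, and p-values measure the spread between single fish.

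MBP in brain averaged 1020 ± 321 CPM in bold fish and 930 ± 277 CPM in shy fish (SD, n = 5 each), a log2 fold change of 0.23 with an interval of 1.96 SE from -0.42 to 0.88 (adjusted p 0.892 in edgeR). The difference was within the spread of either group. The log2 fold change was -0.01 without brain shy 1 and 4, -0.02 without shy 1 alone and 0.25 without shy 4 alone. In pituitary MBP averaged 58.0 ± 5.14 CPM in bold fish and 64.0 ± 23.3 CPM in shy fish, with a log2 fold change of -0.18 (interval -0.59 to 0.23, adjusted p 0.645 in edgeR). The larger spread of the shy group came from shy 2, at 98.6 CPM, and shy 3, at 37.9 CPM; without pituitary shy 1 and 2 the change was 0.06. In head kidney it averaged 55.5 ± 9.31 CPM in bold fish and 52.5 ± 9.92 CPM in shy fish, with a log2 fold change of -0.02 (interval -0.27 to 0.23, adjusted p 0.979 in edgeR). This sign, from the fit with sex as a covariate, is not that of the difference between the means, and without the covariate the change was 0.04. Head kidney thus gave the narrowest interval for MBP.

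The MOG identifier DLAgn_00251810 had the smallest unadjusted p of the members in each of the 3 tissues and a positive bold minus shy change in each. In brain it was 1.79, 0.778, 0.484, 2.44 and 0.792 CPM in bold fish, against 0.303, 0.671, 0.607, 0.231 and 0.819 CPM in shy fish. Its log2 fold change there was 1.28 (SE 0.466, unadjusted p 0.0215, adjusted p 0.888 in edgeR), and 1.04 without brain shy 1 and 4, its 2 lowest libraries. The 2 bold females, bold 1 and bold 4, were above all other brain libraries, and the 3 bold males lay inside the shy range. In pituitary it was 4.08, 2.41, 0.875, 0.337 and 2.22 CPM in bold fish, against 0.224, 0.094, 2.17, 1.21 and 0.816 CPM in shy fish. There the log2 fold change was 1.65 (SE 0.754, unadjusted p 0.0489, adjusted p 0.277 in edgeR). Its lowest pituitary libraries, shy 1 and shy 2, held 1 read of it each. They are those that stood apart, and without both the change was 0.76. Without bold 4, the lowest bold library with 2 reads, the change was 2.39 (adjusted p 0.085 in edgeR, the lowest over the alternatives). In head kidney it was 2.01, 2.01, 3.65, 3.70 and 2.74 CPM in bold fish, against 2.40, 1.46, 1.59, 1.94 and 1.79 CPM in shy fish. There the log2 fold change was 0.60 (SE 0.295, unadjusted p 0.0655, adjusted p 0.483 in edgeR), and 3 of 5 bold libraries were above all shy libraries. The tissues share fish, so they are not independent repeats, and no tissue's change passed the adjustment.

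**Figure D4:**
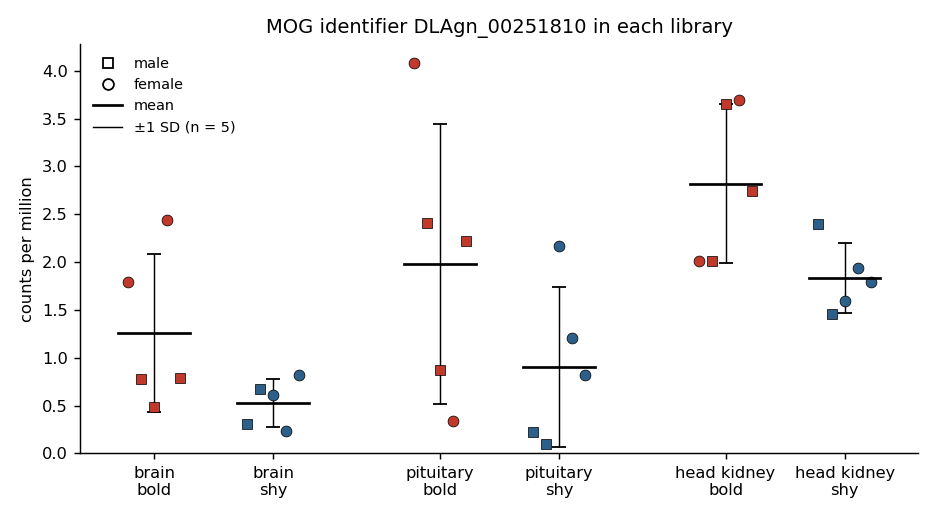
MOG identifier DLAgn_00251810 in CPM in each library by tissue and behavior; squares are males, circles females, thick lines group means and bars 1 SD (n = 5). The 2 highest brain values, 1.79 and 2.44 CPM, are bold females, and the bold and shy ranges overlap in all 3 tissues.

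In head kidney 12 of the 14 MOG identifiers tested had a positive bold minus shy change, with a median of 0.36 on the log2 scale and a range from -0.86 to 0.80, whereas 48% of all genes were positive with a median of -0.01. None of the 14 passed, with adjusted p values of 0.483 or more in edgeR, and the copies share libraries, so their count is a description. The summed MOG level in head kidney was 73.9 ± 19.4 CPM in bold fish and 59.4 ± 11.6 CPM in shy fish (SD, n = 5 each). In pituitary it was 14.3 ± 4.82 CPM in bold fish and 13.0 ± 5.4 CPM in shy fish. In brain it was 6.84 ± 1.49 CPM in bold fish and 3.96 ± 1.69 CPM in shy fish, with ranges of 4.68 to 8.35 CPM and 2.59 to 6.74 CPM that overlap, and the shy mean was 4.56 ± 2.08 CPM without shy 1 and 4. The negative ones were DLAgn_00174790, at -0.42 (SE 0.374), and DLAgn_00263720, at -0.86 (SE 0.612). Summed markers of B and T lymphocytes in head kidney were 718 to 1171 CPM in bold fish and 426 to 768 CPM in shy fish. The highest of them, named after their values were seen, were the B cell genes CD22 (DLAgn_00057180), CD79A, PAX5 (DLAgn_00181510) and CD79B. Their bold minus shy changes were 0.38, 0.59, 0.66 and 0.54 (adjusted p 0.501, 0.396, 0.338 and 0.445 in edgeR). Those of the T cell genes CD3E, LCK, ZAP70, CD247 and CD4 (DLAgn_00058650) were -0.15, 0.02, 0.01, 0.06 and 0.23. The CD22 identifiers DLAgn_00063970 and DLAgn_00057260 were at 0.40 and -0.13. Of the 11 lymphocyte markers tested in head kidney, edgeR called 0. Summed markers of macrophages and neutrophils were 3162 to 4763 CPM in bold fish and 2568 to 5565 CPM in shy fish. The part of these cells in the MOG values was not tested. In brain both tested MOG identifiers were positive, beside 50.7% of all genes, and in pituitary 2 of 3, beside 51.8%. DLAgn_00261920 was among the positive ones in both tissues, at 0.81 in brain and 0.51 in pituitary, and was -0.01 and -0.18 there without the libraries that stood apart, so neither count holds without them. Of the membrane, lipid, lineage and butyrophilin lists, edgeR called 0 of 72 identifiers between bold and shy fish in brain. It called 0 of 57 in pituitary and 0 of 41 in head kidney. At an unadjusted p under 0.05 were 1, 15 and 2, beside 1.36%, 18% and 11.2% of all genes. DESeq2 called 3, all in pituitary, of the 56 it tested there, beside 4.05% of all genes. All 3 were higher in bold fish, as were 550 of the 689 genes it called there. These 3 are named after their values were seen. CLDN11, a claudin of myelin tight junctions in mammals, averaged 15.2 ± 5.57 CPM in bold fish and 6.95 ± 1.56 CPM in shy fish (log2 fold change 1.21, adjusted p 0.00722 in DESeq2 and 0.229 in edgeR). CD9B, a tetraspanin, averaged 31.4 ± 5.17 CPM in bold fish and 18.6 ± 9.31 CPM in shy fish (adjusted p 0.018 in DESeq2 and 0.229 in edgeR). The ENPP6 identifier DLAgn_00113280 averaged 6.28 ± 2.52 CPM in bold fish and 1.85 ± 1.45 CPM in shy fish (adjusted p 0.0272 in DESeq2 and 0.241 in edgeR). Without pituitary shy 1 and 2 the edgeR log2 fold changes were 1.32 for CLDN11, 0.33 for CD9B and 0.53 for that ENPP6 identifier. The adjusted p of each was then 0.99 in edgeR.

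Between males and females no member passed in any tissue in the same edgeR fits, where 0% of all genes passed in each; at an unadjusted p under 0.05 there was 1 member in head kidney and none in brain or pituitary, beside 3.58%, 0.477% and 13.5% of all genes. MBP in brain averaged 912 ± 337 CPM in males and 1039 ± 247 CPM in females (SD, n = 5 each), a log2 fold change of -0.23 (SE 0.33, adjusted p 1 in edgeR) that was 0.02 without brain shy 1 and 4. In pituitary it averaged 64.9 ± 19.5 CPM in males and 57.1 ± 13.3 CPM in females, and in head kidney 57.3 ± 6.80 CPM in males and 50.6 ± 10.8 CPM in females, with log2 fold changes of 0.22 (SE 0.211) and 0.19 (SE 0.128). The pituitary change was -0.02 without shy 1 and 2 of that tissue.

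The head kidney member with an unadjusted p under 0.05 was MOG DLAgn_00217270. It was 2.53, 3.80 and 6.69 CPM in the bold males and 0.900 and 1.02 CPM in the shy males, against 0.823 and 0.837 CPM in the bold females and 1.19, 1.11 and 1.34 CPM in the shy females. The 3 bold males were above all other fish, and the 2 shy males lay within the range of the females. Of the 14 MOG identifiers, 8 had a positive male minus female change in head kidney, beside 49.1% of all genes. That of DLAgn_00217270 was 1.17 on the log2 scale (SE 0.528, unadjusted p 0.0484, adjusted p 1 in edgeR), and its bold minus shy change was 0.73 (SE 0.525, adjusted p 0.643 in edgeR). Over the alternatives the bold minus shy change ran from 0.30, without head kidney shy 2, to 1.35, without the sex covariate, and the male minus female change from 0.72 to 1.56. DLAgn_00266160 had a change of 1.08 between males and females (SE 0.559, unadjusted p 0.081), carried by bold 2 and shy 1. DLAgn_00251810, which was highest in bold females in brain, had male minus female changes of -1.03 in brain (SE 0.463), -1.21 in pituitary (SE 0.749) and 0.01 in head kidney (SE 0.297). Without the libraries that stood apart these were -1.22 in brain and -0.35 in pituitary.

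**Figure D5:**
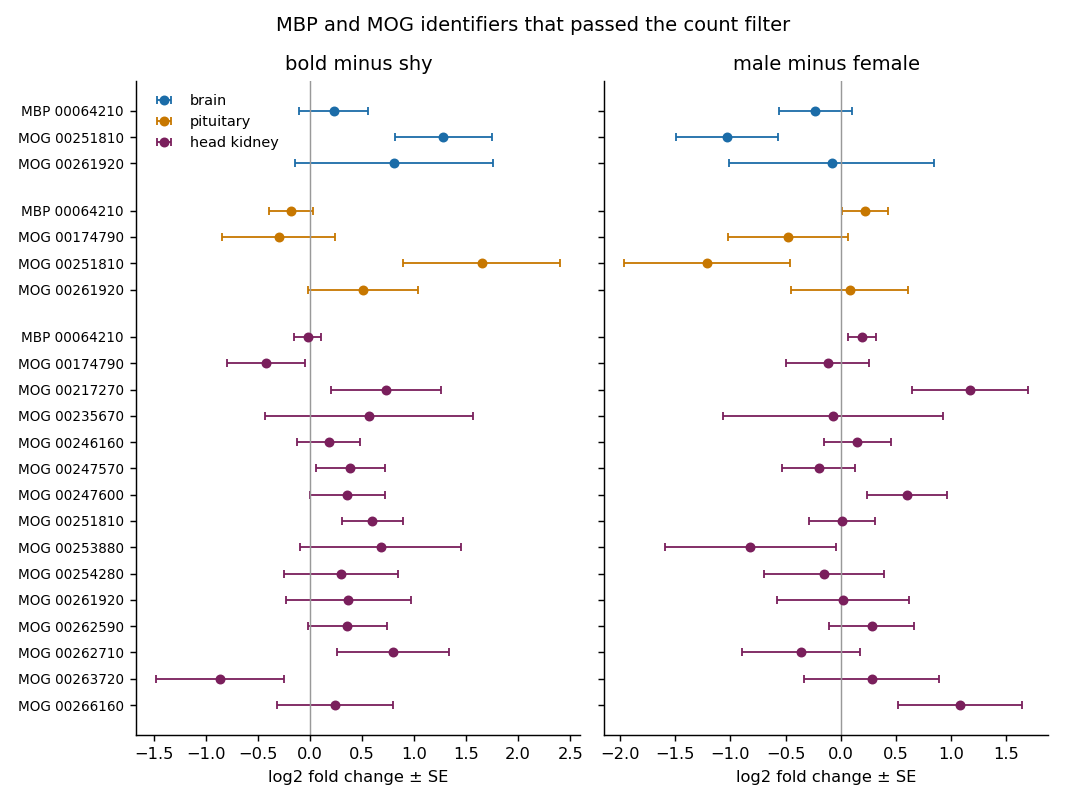
Log2 fold change ± SE of each MBP and MOG identifier that passed the count filter, bold minus shy on the left and male minus female on the right, by tissue (edgeR, n = 5 a group). In head kidney 12 of 14 MOG identifiers lie right of 0 for bold minus shy and 8 of 14 for male minus female, and no member passed the test.

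The genes with the most similar profile over the 30 libraries were sought for 3 members, by the root mean square difference of centred log2 CPM among 18031 identifiers with a symbol. For MBP they were GNRH-R (0.545), LPHN3 (0.549), THPO (0.554), NDRG2 (0.565) and TPH2 (0.565), each highest in brain. NDRG2 averaged 489 CPM in brain, 43.9 CPM in pituitary and 18.5 CPM in head kidney, and LPHN3 averaged 102, 8.76 and 8.71 CPM. GNRH-R, THPO and TPH2 averaged 3.86, 3.88 and 3.83 CPM in brain, and no more than 0.0456 CPM in either other tissue. So near 0, the number added before the logarithm narrows their gap between tissues, and their likeness to MBP depends on it. For DLAgn_00251810 they were C26H6ORF89 (0.644), MAP3K2 (0.649), FOXP1 (0.653), MYBBP1A (0.668) and ZBTB11 (0.674), each highest in head kidney. For DLAgn_00174790 they were CDCA7L (0.627), ZNF367 (0.677), MCM4 (0.718), MXD3 (0.73) and RHOH (0.732). CDCA7L averaged 3.8 CPM in brain, 10.9 CPM in pituitary and 36.6 CPM in head kidney. These measures follow the tissue means above all, and they depend on the number added before the logarithm.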

How the data were processed

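RNA was measured in 30 libraries of brain, pituitary and head kidney. Per the labels' protocols, libraries came from a stranded mRNA kit and were read as single ends. Per the submitters' processing notes, the software included featureCounts 1.6.2, TopHat2 2.1.1 with Bowtie2 2.2.9, and SAMtools 1.5. Not given in the sources used here are the build, the annotation and the strand setting, so reads of overlapping or antisense genes may be mixed. The authors deposited raw read counts for each gene identifier, not normalized. 1 count column could be given only the unit other in the record of units, because its name in the deposited table is a bare number; all 30 columns hold raw counts. Symbols are those of the count table, since 0 of its 26719 identifiers occur in the RefSeq gene table, and no sequence is shown.

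Columns were tied to samples by title. Within each tissue the counts were tested with edgeR 4.0.16 (R 4.3.3; quasi-likelihood, robust, TMM factors, filterByExpr with a minimum count of 10) on behavior and sex. Tissues were compared in 1 fit of all 30 libraries, with calls where the adjusted p was under 0.05 and the log2 change at least 1. P-values are two-sided and adjusted by the Benjamini-Hochberg method over all genes tested. The SE is the log2 fold change over the root of its F, and an interval is 1.96 SE to each side.

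The members and lists were chosen with earlier results of these data known. Named were all members, the 3 genes of each pathway list with the largest brain minus head kidney change, list genes that passed for behavior or sex (none did), and the 5 genes most like each of 3 members; genes named after their values were seen are marked. Alternatives were median-of-ratios scaling, DESeq2 1.42.0, voom weights (limma 3.58.1), other filters, no sex covariate, plain totals, another prior count (0.5 in place of 2) and leaving out libraries. The fits were tested on simulated counts. Figures were drawn with matplotlib 3.10.9.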

Additional observations from a re-analysis of the deposited data

Results flagged for a closer look

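Of 44 groups of 5 libraries in which a tested member was examined for a library far from the others, 2 were picked out, and chance picks out about 1 in 20. Both concern the same library. MOG DLAgn_00266160 was 17.2 CPM in head kidney bold 2, where the next bold library had 4.64 CPM and the lowest 3.21 CPM. MOG DLAgn_00263720 was 1.56 CPM in head kidney bold 2, where the next bold library had 0.502 CPM and the lowest 0.352 CPM. The gap to the nearest library took 0.898 and 0.876 of the range of these groups, past the limit of 0.71.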

How the results depend on the processing

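Of 708 values of the members under other settings, 651 kept their direction, 57 reversed it and 0 newly passed the test. Bold minus shy counts of genes called were 2 in brain (1 in the reported fit), 689 in pituitary (0) and 122 in head kidney (1) with DESeq2, 2 in pituitary without a filter, 0 in head kidney with voom weights and 4 there without the covariate. Male minus female counts with DESeq2 were 1 in brain and 7 in head kidney (0 in both). With no minimum fold, brain and pituitary differed in 13367 genes (8647). Leaving out 1 library gave 0 to 1 genes in brain, 0 to 73 in pituitary (73 without bold 4) and 0 to 5 in head kidney for behavior, and 0 to 0, 0 to 1 and 0 to 1 for sex. Reversed bold minus shy changes were -0.01 for MBP and -0.01 for MOG DLAgn_00261920 without brain shy 1 and 4, 0.06 and -0.18 for the same members without pituitary shy 1 and 2, and, for MBP in head kidney, 0.05 with voom weights and 0.04 without the covariate. Reversed male minus female changes were 0.02 for MBP and 0.24 for DLAgn_00261920 without brain shy 1 and 4, -0.02 for MBP without pituitary shy 1 and 2, and in brain 0.00 for MBP with voom weights and 0.19 for DLAgn_00261920 without the covariate. In head kidney they were -0.02 for DLAgn_00251810 and -0.03 for DLAgn_00261920 with DESeq2, 0.31 for DLAgn_00235670 and -0.04 for DLAgn_00251810 with voom weights, and 0.25 for DLAgn_00235670 and -0.07 for DLAgn_00263720 without the covariate. Leaving out 1 library moved bold minus shy for MBP from -0.02 to 0.47 in brain, -0.29 to 0.08 in pituitary and -0.07 to 0.08 in head kidney, for DLAgn_00174790 from -0.63 to 0.04 in pituitary, and in head kidney for DLAgn_00246160 from -0.02 to 0.35 and for DLAgn_00266160 from -0.26 to 0.74. It moved male minus female for MBP from -0.47 to 0.02 in brain and -0.03 to 0.32 in pituitary, and for DLAgn_00261920 from -0.42 to 0.53 in brain, -0.35 to 0.34 in pituitary and -0.29 to 0.39 in head kidney. In head kidney it also moved DLAgn_00174790 from -0.36 to 0.26, DLAgn_00235670 from -0.66 to 0.47, DLAgn_00251810 from -0.14 to 0.25, DLAgn_00254280 from -0.56 to 0.11 and DLAgn_00263720 from -0.20 to 0.56. Without reversal, bold minus shy for DLAgn_00251810 in pituitary ran from 0.76 to 2.39 over all settings. The cause of these shifts was not tested. Of 888 list counts, 863 stayed within 1.5 times. Median-of-ratios scaling moved the median of all genes by 0.150 between brain and head kidney. No paired analysis was possible because the labels number no fish and the replicate numbers used here follow the order of the samples. Few reads limit the MOG identifiers in brain, where all 24 together had 27 to 205 counts a library.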
